A study of Danio rerio with 9 samples.

Results

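The genes described are 5 loci that supply the early zebrafish embryo with chromatin protein: the histone variant genes h2afva, h2afvb and h3f3d, the core histone gene hist2h3c, and npm2a, a gene of the nucleoplasmin family of histone chaperones. They were found by their symbols among the 30702 loci of each library table, and each symbol matched 1 locus. RNA was sequenced from embryos at 3 hours post fertilization, close to the start of transcription from the embryo's own genome, in 3 tetraploid, 3 haploid and 3 diploid (control) libraries. Embryos of all 3 ploidies carry the same genotype label, a TJH female crossed to a Tu male, and the haploids and tetraploids were made by a published protocol that the labels cite. Any effect of making these embryos cannot be told apart from an effect of ploidy here. The labels do not give the number of embryos or clutches behind a library, so the replicate spread behind each p-value could be technical.

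DNA in the nucleus is wound around octamers of the core histones H2A, H2B, H3 and H4. Fish and frog eggs are stocked with histone mRNA and protein for the fast cleavage divisions, and the amount of histone relative to DNA is known to bear on when zygotic transcription starts in these embryos. Variant histones such as H2A.Z and H3.3 are made outside S phase as well and are put into chromatin by dedicated chaperones, whereas core histones such as H3.2 are made for replication. A change of ploidy changes the DNA that a maternal supply has to cover, and the comparisons set the mRNAs of this supply side by side between ploidies.

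Levels are FPKM, fragments counted per length of transcript and per size of the library, which can be set side by side between genes, scaled so that the typical gene is equal across libraries. Values are mean ± SD of scaled FPKM, n = 3 libraries per ploidy, unless single libraries are given. Tests were made with limma across the 5860 loci with a mean scaled FPKM of at least 1, on log2(scaled FPKM + 1), a scale that understates changes of low genes, and p-values were adjusted over all of these loci by the Benjamini-Hochberg method. In such bulk RNA, fewer cells and less RNA per cell cannot be told apart. The levels are relative to the other mRNAs of a library, so mRNA per embryo, per cell or per genome was not measured.

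Tetraploid replicate 3 stood apart from the other libraries. Its correlations with them were 0.916 to 0.93, against 0.950 to 0.985 among the other 28 pairs, and its scaling factor was 0.793, against 1.01 to 1.06. Results of the 5 genes that rest on it are given with and without it, and other genes are given with it only. Maternal transcripts were present in every library: 7 of the 11 chosen as markers were tested. The 10 marker loci found summed to 4179 to 5931 scaled FPKM in tetraploids, 3648 to 5073 in haploids and 3265 to 4488 in diploids. The largest part of each sum was 1 gene, cldnd, at 1630 to 4040. Of the others not tested, zar1, dazl and ccnb1 lie in the mostly unread part of the annotation described below, and h1m had no locus. The summed level of 6 early zygotic genes was 14.5 to 32.7 in tetraploids, 2.18 to 33.8 in haploids and 16.3 to 124.1 in diploids, with the highest sum in diploid replicate 1. Of these 6, vox lies in the same mostly unread part and was at 0 in every library. The part of these differences in the results was not tested. Markers of later tissues were at or near 0, but 5 of those 6 loci lie in the part of the annotation in which almost no locus had reads, described below, so their absence carries little weight.

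The 3 variant genes were among the most abundant transcripts. h3f3d, which encodes H3.3, ranked 19th of 5860 tested loci with a mean of 984.5 scaled FPKM. h2afvb and h2afva, which encode H2A.Z-type proteins (h2az2b and h2az2a in current RefSeq naming), ranked 26th and 27th with 829 and 797. npm2a ranked 1157th with 44.7, and hist2h3c ranked 4864th with 2.60. The order of the means over all libraries was therefore h3f3d, h2afvb, h2afva, npm2a and hist2h3c. The levels of h2afvb and h2afva overlapped in libraries of every ploidy, and h3f3d was above both in 8 libraries and below both in tetraploid replicate 3. The steps from these genes to npm2a, and from npm2a to hist2h3c, were larger than any spread between libraries.

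**Figure D1:**
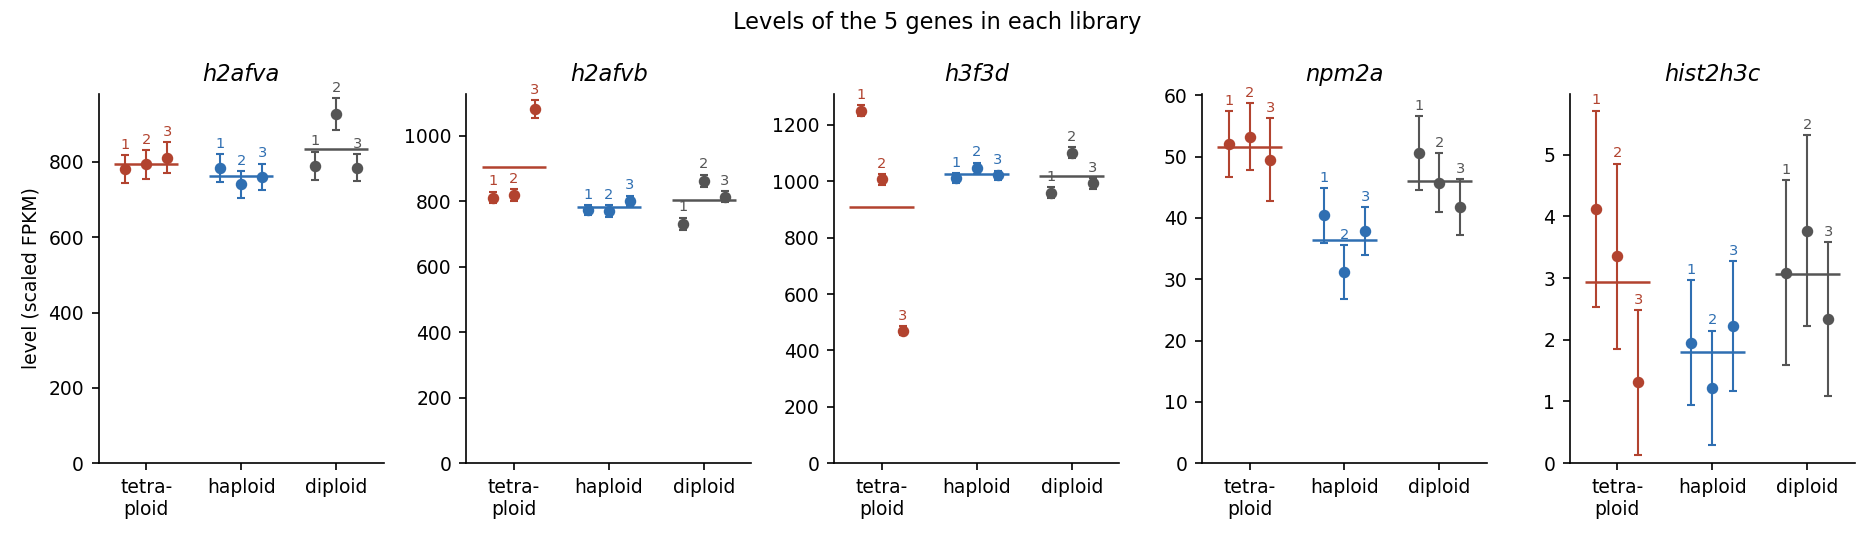
Levels of the 5 genes in scaled FPKM (vertical axes from 0, a separate scale for each gene) in tetraploid, haploid and diploid libraries. Points are libraries with their replicate numbers, vertical bars are the intervals Cufflinks gives for that library divided by its scaling factor, and horizontal lines are group means; h3f3d in tetraploid replicate 3 lies at 469.9, below the 960.03 to 1251 of the other 8 libraries, and npm2a is lower in the haploid libraries than in the libraries of both other ploidies.

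No member passed the test in any comparison. By limma 0 of 5 passed in tetraploids against diploids, where 0.0171% of all tested loci did, and 0 of 5 had an unadjusted p under 0.05, against 4.9% of loci. In haploids against diploids 0 of 5 passed, as did 0% of loci, and 1 of 5, npm2a, had an unadjusted p under 0.05, against 1.42% of loci. In tetraploids against haploids 0 of 5 passed, against 0.0171% of loci, and again 1 of 5, npm2a, had an unadjusted p under 0.05, against 7.75% of loci. The comparisons share libraries and are not independent of each other.

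The gene npm2a gave the smallest unadjusted p of the 5. Nucleoplasmin in frog eggs holds stored H2A and H2B and loosens sperm chromatin after fertilization. The zebrafish locus lies on chromosome 8 from 37716828 to 37722476 (GRCz10, as listed in the files). Its level was 52.1, 53.3 and 49.5 scaled FPKM in tetraploid replicates 1 to 3. It was 40.4, 31.2 and 37.8 in the haploid replicates. In the diploid replicates it was 50.6, 45.8 and 41.8. Every haploid library was thus below every diploid and every tetraploid library, while tetraploids and diploids overlapped. The intervals of single libraries overlapped more. That of haploid replicate 1, 35.9 to 44.9, overlapped those of diploid replicate 3 (37.3 to 46.3) and tetraploid replicate 3 (42.7 to 56.3).

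In haploids npm2a averaged 36.5 ± 4.76, against 46.1 ± 4.43 in diploids, a log2 difference of -0.33 with a 95% interval of -0.65 to -0.02 (limma unadjusted p = 0.0396, adjusted p = 0.9999). In tetraploids it averaged 51.6 ± 1.93, against 36.5 ± 4.76 in haploids, a log2 difference of 0.50 with an interval of 0.18 to 0.81 (limma unadjusted p = 0.00561, adjusted p = 0.548). Against diploids the tetraploid difference was 0.16, with an interval of -0.15 to 0.48 (limma adjusted p = 0.828). None of these passed. The means stood in the order of ploidy, but tetraploid and diploid libraries overlapped, and their log2 difference was 0.03 in FPKM as deposited. How many of all loci have means in such an order was not counted. The depth at this locus, read from the width of the deposited intervals as counting error, was 199.9 to 386 fragments per library.

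The separation of tetraploids from haploids at npm2a depended on the scaling. In FPKM as deposited tetraploid replicate 3 had 39.3, within the haploid range of 31.5 to 41.99, and the other tetraploid libraries had 54.4 and 56.1. The lower haploid level held in FPKM as deposited, where diploids had 44.3 to 53.8. Without tetraploid replicate 3 the log2 difference of tetraploids over haploids was 0.53 (limma adjusted p = 0.392), and both remaining tetraploid libraries were above every diploid library.

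hist2h3c, a core histone gene of the H3.2 type in a histone cluster on chromosome 25 (34546697 to 34547197, GRCz10), showed the same order of haploids and diploids at a far lower level. Its tetraploid replicates had 4.12, 3.35 and 1.31 scaled FPKM. The haploid replicates had 1.95, 1.22 and 2.23. The diploid replicates had 3.08, 3.77 and 2.33. The haploid libraries were below every diploid library, and tetraploid replicate 3 was within the haploid range while the other tetraploid libraries were above it.

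The haploid mean of hist2h3c was 1.80 ± 0.518, against 3.06 ± 0.716 in diploids, a log2 difference of -0.54 with an interval of -1.24 to 0.16 (limma adjusted p = 0.9999). The tetraploid mean was 2.93 ± 1.45, a log2 difference of -0.11 from diploids (interval -0.81 to 0.59) and of 0.43 from haploids (interval -0.27 to 1.13), neither passing (limma adjusted p = 0.944 and 0.731). Without tetraploid replicate 3 these differences were 0.24 and 0.78, so the first changed sign (limma adjusted p = 0.971 and 0.392). The locus drew only 5 to 26.9 implied fragments per library. The intervals of its haploid libraries reached up to 3.28 and those of its diploid libraries down to 1.09. Core histone mRNAs usually end in a stem-loop in place of a poly(A) tail, and whether the libraries selected poly(A) RNA is not given in the sources used here. Other H3 loci are listed elsewhere in the genome, and how any shared reads were divided among them is not given either, so the level of hist2h3c is uncertain.

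The H2A.Z-type genes h2afva and h2afvb varied little with ploidy. In zebrafish, H2A.Z marks promoters kept free of DNA methylation before the genome is activated. h2afva, on chromosome 5 from 13147070 to 13152470, had 781, 793 and 811 scaled FPKM in tetraploid replicates 1 to 3. The haploid replicates had 784, 740.2 and 761, and the diploid replicates 789, 926 and 785. As deposited, tetraploid replicate 3 had the lowest h2afva level, 644 FPKM. In scaled FPKM diploid replicate 2 was the highest library, and the highest haploid library (783.9) was just below the lowest diploid library (784.8).

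Means of h2afva were 795 ± 15.2 in tetraploids, 762 ± 21.9 in haploids and 833 ± 80.2 in diploids. The log2 differences were -0.06 for tetraploids against diploids (interval -0.33 to 0.21), -0.13 for haploids against diploids (interval -0.39 to 0.14) and 0.06 for tetraploids against haploids (interval -0.21 to 0.33), with limma adjusted p of 0.911, 0.9999 and 0.896. These intervals bound a haploid level of h2afva between 0.761 and 1.10 times the diploid one.

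h2afvb, on chromosome 10 from 45138297 to 45148345, had 811, 817 and 1082 scaled FPKM in tetraploid replicates 1 to 3. The haploid replicates had 772, 769 and 801, and the diploid replicates 731, 862 and 814. Only tetraploid replicate 3 was far from the rest. As deposited its 858 FPKM lay between the 847 and 860.3 of the other tetraploid libraries.

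Means of h2afvb were 903 ± 155 in tetraploids, 781 ± 17.6 in haploids and 802 ± 66.4 in diploids. The tetraploid libraries were all above the haploid ones, with a log2 difference of 0.20 (interval -0.13 to 0.53, limma adjusted p = 0.734), and 0.06 without tetraploid replicate 3 (limma adjusted p = 0.881). Against diploids the differences were 0.16 in tetraploids (interval -0.17 to 0.49, limma adjusted p = 0.837; 0.03 without tetraploid replicate 3) and -0.04 in haploids (interval -0.36 to 0.29, limma adjusted p = 0.9999). The implied fragments were 6102 to 10841 per library at h2afvb and 1577 to 1921 at h2afva. From diploid replicate 1 to haploid replicate 3 they rose from 6102 to 10841 at h2afvb, but only from 1720 to 1921 at h2afva. The h2afva intervals may thus hold more than counting error, and its implied fragments were not read as a depth. In scaled FPKM the h2afva intervals of single libraries are wider than the differences among tetraploid and among haploid libraries. As deposited, h2afva in tetraploid replicate 3 (644 FPKM, interval 611 to 676) lay below the intervals of the other tetraploid libraries.

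How reads shared by h2afva and h2afvb were divided is not given in the sources used here. Their summed level was 1698 ± 169 scaled FPKM in tetraploids, 1543 ± 28.7 in haploids and 1635 ± 138 in diploids. Without tetraploid replicate 3 the tetraploid mean was 1601, below the diploid mean. Every tetraploid library was above every haploid library in this sum, and both groups overlapped the diploids. In FPKM as deposited tetraploids and haploids overlapped too, with 1502 in tetraploid replicate 3. h2afvb made up 52.9 ± 3.64% of the pair in tetraploids (50.8% without replicate 3), 50.6 ± 0.884% in haploids and 49.1 ± 1.59% in diploids. The highest share was 57.1%, in tetraploid replicate 3, and the other libraries ranged from 48.1% to 51.3%. The pair thus contributed in near equal parts in each library but this one.

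h3f3d, on chromosome 24 from 37800831 to 37805131, was as steady in haploids and diploids and spread widely in tetraploids. H3.3, its product, is placed in chromatin by the HIRA complex and by DAXX with ATRX. The tetraploid replicates had 1251, 1006.5 and 469.9 scaled FPKM. The haploid replicates had 1011.5, 1046 and 1022, and the diploid replicates 960.03, 1102 and 992.5. The tetraploid group held both the highest and the lowest library of all, and haploids and diploids overlapped.

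Means of h3f3d were 909 ± 399 in tetraploids, 1026 ± 17.8 in haploids and 1018 ± 74.3 in diploids. The log2 difference of haploids from diploids was 0.01, with an interval of -0.66 to 0.69 that the tetraploid spread widens, because the fit shares 1 estimate of spread (limma adjusted p = 0.9999). Tetraploids differed from diploids by -0.28 (interval -0.95 to 0.40) and from haploids by -0.29 (interval -0.96 to 0.38), neither passing (limma adjusted p = 0.851 and 0.803). Without tetraploid replicate 3 both differences were positive, 0.14 and 0.13 (limma adjusted p = 0.97 and 0.76). The direction of the tetraploid difference therefore rested on 1 library.

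**Figure D2:**
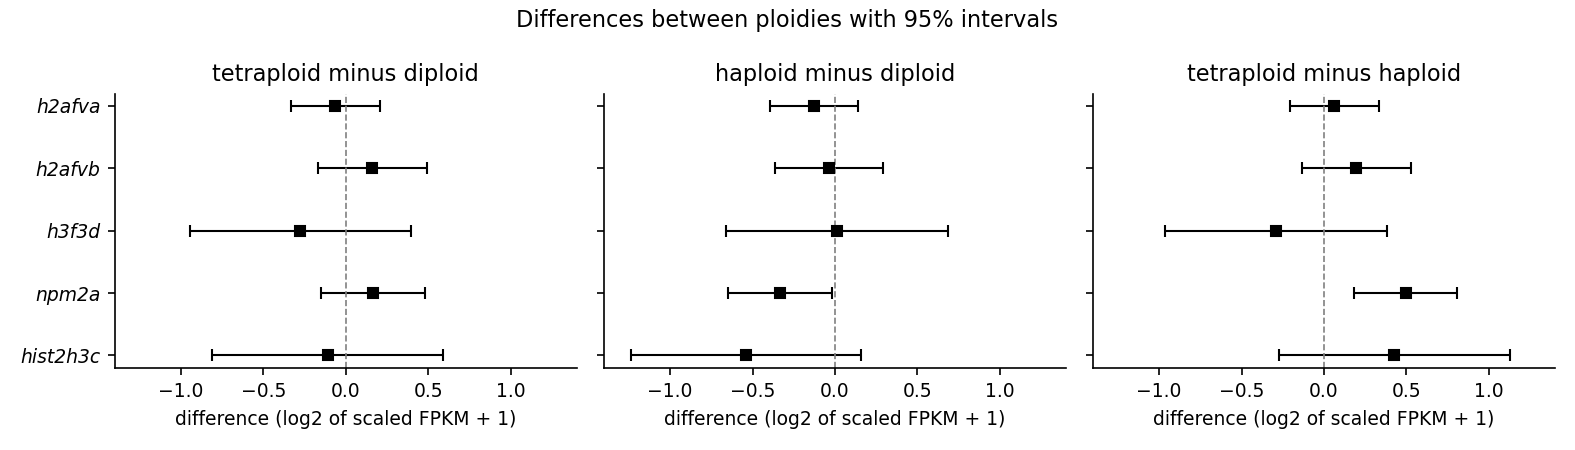
Differences in log2(scaled FPKM + 1) of each gene for tetraploid minus diploid, haploid minus diploid and tetraploid minus haploid (horizontal axes), with 95% intervals from the limma fit of 9 libraries. The npm2a intervals of -0.65 to -0.02 in haploids against diploids and of 0.18 to 0.81 in tetraploids against haploids lie off 0 before adjustment, and the other 13 intervals include it.

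In tetraploid replicate 3 the 5 genes departed from the mean of the other 8 libraries in different directions. h3f3d differed by -1.15 on the log2 scale, and 6.40% of tested loci were as low or lower in that library. hist2h3c differed by -0.66, and 17.3% of loci were as low. h2afvb differed by 0.44, and 23.5% of loci were as high, while npm2a differed by 0.18 and h2afva by 0.03. The median deviation of tested loci in that library was 0.09 on chromosome 24, which holds h3f3d, -0.06 on chromosome 25, which holds hist2h3c, and 0.20 on chromosome 10, which holds h2afvb. The h3f3d value thus lay well below the median of its chromosome in that library, and its cause was not tested.

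Ratios within a library are free of the scaling. The level of h3f3d over the summed level of h2afva and h2afvb was 0.786, 0.625 and 0.248 in tetraploid replicates 1 to 3. It was 0.650, 0.693 and 0.654 in the haploid replicates. It was 0.632, 0.616 and 0.621 in the diploid replicates. The haploid libraries were thus above the diploid ones, the nearest at 0.650 and 0.632, and the tetraploid libraries spanned both. Several ratios were taken, and how often ratios of other genes separate in this way was not counted. npm2a over the same sum was 3.27%, 3.31% and 2.61% in tetraploids, 2.60%, 2.07% and 2.42% in haploids, and 3.33%, 2.56% and 2.62% in diploids. Here haploid replicate 1 was above diploid replicate 2, so the groups overlapped. The 5 genes together took 1.01 ± 0.0908% of the summed FPKM in tetraploids, 0.985 ± 0.0491% in haploids and 1.04 ± 0.0222% in diploids. Without tetraploid replicate 3 the tetraploid mean was 1.06%.

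**Figure D3:**
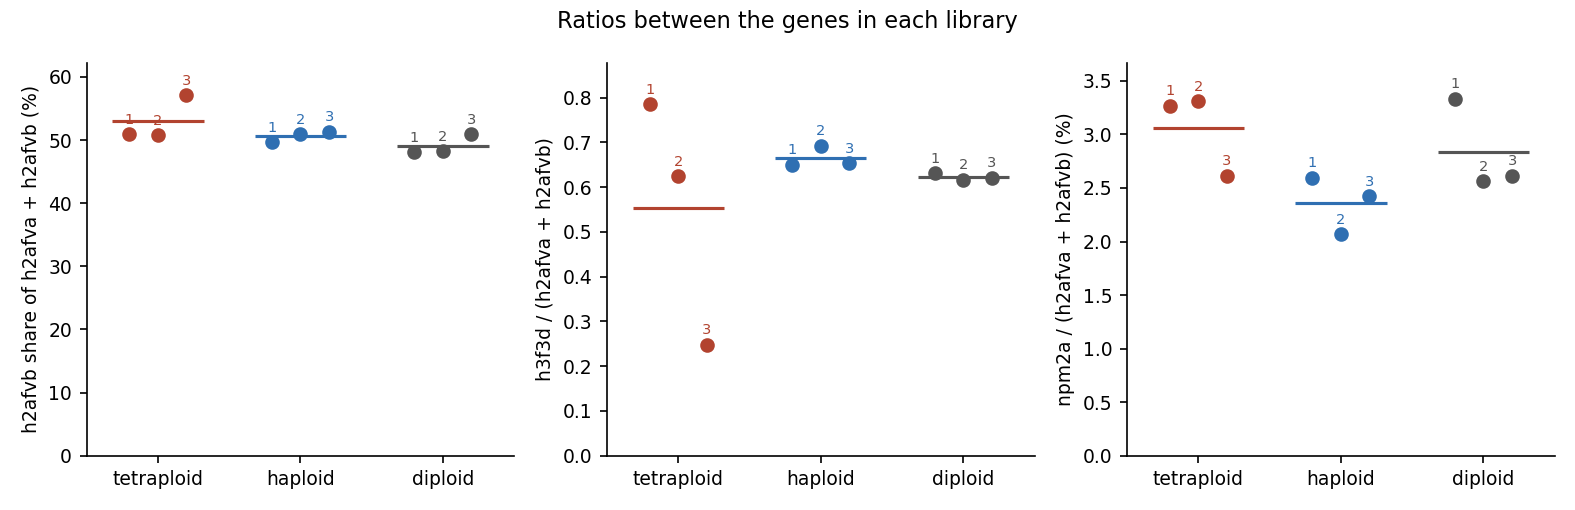
Ratios of levels in each library: the share of h2afvb in the sum of h2afva and h2afvb (percent), h3f3d over that sum, and npm2a over that sum (percent), with points numbered by replicate and lines for group means. Tetraploid replicate 3 has the highest h2afvb share, 57.1%, and the lowest h3f3d ratio, 0.248.

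Groups that did not overlap were counted beside their share among all tested loci. In haploids against diploids 3 of the 5 genes, h2afva, hist2h3c and npm2a, were lower in every haploid library, against 3.69% of loci, and 0 were higher, against 5.05% (8.74% in either direction). The nearest haploid and diploid libraries had 783.9 and 784.8 at h2afva and 2.23 and 2.33 at hist2h3c. These gaps are far narrower than the intervals of the single libraries. In tetraploids against haploids 2 of the 5, h2afvb and npm2a, were higher in every tetraploid library, against 7.24% of loci, and 0 were lower, against 6.47% (13.7% in either direction). This count depended on the scaling and on 1 library. In FPKM as deposited npm2a overlapped, and without tetraploid replicate 3 hist2h3c was higher too. In tetraploids against diploids 0 of 5 were higher, against 5.77% of loci, and 0 were lower, against 5.72% (11.5% in either direction). The median log2 difference of the 5 genes was -0.06, -0.13 and 0.20 in tetraploids against diploids, haploids against diploids and tetraploids against haploids, where the medians of all loci were 0.004, -0.001 and -0.002. With 5 genes chosen with earlier results of these data known, these counts describe the genes and carry no test.

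Across the 9 libraries the 5 genes did not share 1 profile. The highest correlation among them was 0.65, between npm2a and hist2h3c (0.92 without tetraploid replicate 3), and the lowest was -0.82, between h2afvb and h3f3d, which was 0.47 without that library. The hist2h3c profile rests on 5 to 26.9 implied fragments per library, so its correlations, here and below, hold much counting error. The tested loci most like h2afva were the ribosomal protein genes rps15, rpl23a and rps21, with Pearson correlations of 0.97, 0.96 and 0.93. Those most like npm2a were the cyclin gene ccnb3 at 0.97, the coagulation factor gene f3b at 0.94 and eci1 at 0.93. Those most like hist2h3c were prpf18 at 0.98, pvalb6 at 0.96 and a locus listed as BAZ2B at 0.95. For h2afvb they included xpr1b at 0.98 and syf2 at 0.96, and for h3f3d they were nufip1 at 0.98 and a pair of loci with clone names at 0.99 and 0.98. The h2afvb and h3f3d values were lower without tetraploid replicate 3, at 0.73 to 0.88 and 0.79 to 0.87. These points share libraries and scaling factors and were picked as the highest of 5860, so they are a description.

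The other histone genes show how much of the measured histone mRNA these genes made up. A list of 38 histone symbols matched 17 loci, 10 of them unmeasured, and its 4 tested loci were members, so 0 passed by limma (0 at an unadjusted p under 0.05 in each comparison). By symbol, 57 loci were histone genes, of which 33 lie in a part of the locus numbering in which almost no locus had reads. On each chromosome the locus numbers rise with position, restart once and rise again, and 38.4% of loci before the restart were tested, against 0.283% after it. The 33 loci after it, among them h2afx, h3f3c and the replication-independent h3f3b.1 copies, had mean levels of at most 0.475 and were treated as unmeasured. Of the 24 others, 13 were below the filter and 11 were tested, the 4 histone genes described here and a further 7. Of the summed level of all 57 loci, h2afva, h2afvb and h3f3d took 95.3% to 98.4% in each library. This share covers only what was read here and is not a share of all histone mRNA. The 33 unmeasured loci added almost nothing to the sum. Core histone mRNA could also be undercounted if poly(A) RNA was selected, which is not given.

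The further 7 loci are listed under capital symbols of human genes, several loci to a symbol. Whether such copies share reads was not assessed here, so their levels are uncertain. By limma 0 of the 11 passed in each comparison. For tetraploids against diploids, haploids against diploids and tetraploids against haploids, 2, 0 and 2 had an unadjusted p under 0.05. These are 18.2%, 0% and 18.2%, against 4.9%, 1.42% and 7.75% of all tested loci. The most abundant of the further 7 is listed as HIST2H2AB on chromosome 10 from 29930340 to 29931249. It had 26.9, 31.2 and 23.7 scaled FPKM in tetraploids, 27.1, 78.2 and 36.4 in haploids and 37.8, 49.6 and 87.8 in diploids. The tetraploid libraries were below every diploid library (log2 difference -0.99, limma adjusted p = 0.828). A locus listed as HIST2H3A on chromosome 7 from 5843963 to 5844461 had 9.54 ± 0.607 in tetraploids and 5.80 ± 2.06 in haploids, the same direction as hist2h3c. Another with that symbol, from 5783443 to 5784093, had 1.69 ± 1.54 in tetraploids and 4.79 ± 1.12 in haploids, the opposite direction, and was listed at 0 in tetraploid replicate 3. Neither passed, so the H3 copies showed no common direction between tetraploids and haploids. The summed level of the histone loci other than the 5 genes was 54.5, 65.4 and 36.7 in tetraploids, 55.2, 103.5 and 68.5 in haploids and 63.4, 84.6 and 125.3 in diploids.

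**Figure D4:**
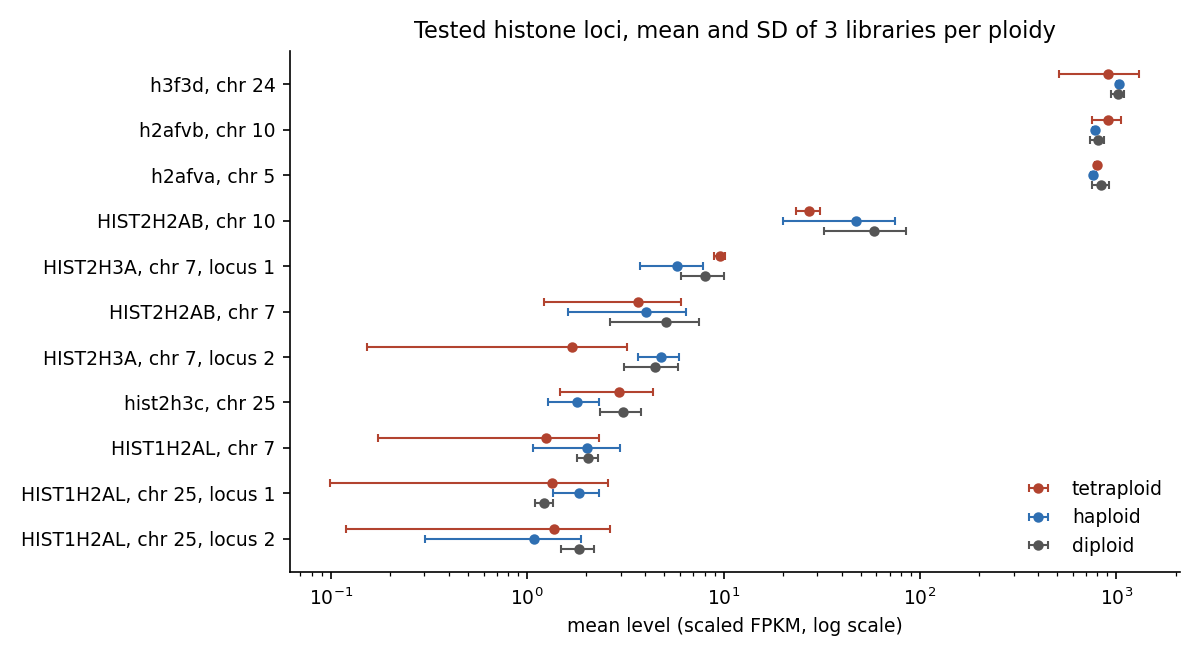
Mean level (horizontal axis, scaled FPKM, log scale) of the 11 tested histone loci in tetraploid, haploid and diploid libraries, with bars of 1 SD (n = 3). h3f3d, h2afvb and h2afva have means of 984.5, 829 and 797 over all libraries, the next locus, listed as HIST2H2AB, has a mean of 44.3, and hist2h3c lies among loci below 10.

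Histone chaperone and assembly genes give the setting for npm2a. Of 48 symbols in this list 41 loci are in the files, 27 of them in the unmeasured part. These include npm2b, the paralogue of npm2a, and the CAF-1 subunit genes chaf1a and chaf1b. By limma 0 of the 13 tested passed in each comparison. In tetraploids against diploids, haploids against diploids and tetraploids against haploids, 2, 1 and 3 of 13 had an unadjusted p under 0.05. These are 15.4%, 7.69% and 23.1%, against 4.9%, 1.42% and 7.75% of all tested loci. npm2a is itself 1 of the 13. It was the 1 in haploids against diploids and 1 of the 3 in tetraploids against haploids, so these counts hold npm2a again. Like the 5 genes, the 4 gene lists were chosen with earlier results of these data known, so their counts carry no test. In tetraploids against diploids 9 of 13 differences were positive, with a median of 0.09, and in haploids against diploids 8 of 13 were positive, with a median of 0.02. In tetraploids against haploids 9 of 13 were positive, with a median of 0.07. Of the 12 loci other than npm2a, 8 were positive in each comparison, with medians of 0.09, 0.04 and 0.05. Of all tested loci 50.61%, 49.74% and 49.66% were positive in the same order of comparisons.

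The members with the smallest p besides npm2a were supt16h and hira. supt16h encodes a subunit of FACT, which moves H2A and H2B during transcription and replication. It had 109.96, 109.6 and 102.7 scaled FPKM in tetraploids, 81.98, 65.9 and 84.0 in haploids and 74.6, 83.9 and 68.7 in diploids. The tetraploid libraries were above all others (log2 difference 0.50 from diploids and 0.48 from haploids, limma adjusted p = 0.828 and 0.548). In FPKM as deposited this separation was lost, with 81.5 in tetraploid replicate 3, against haploid libraries of up to 87.1 and diploid libraries of up to 86.7.

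hira, the chaperone of H3.3 noted above, had 24.1, 22.3 and 27.4 in tetraploids, 19.5, 14.9 and 19.6 in haploids and 17.3, 18.4 and 17.4 in diploids. Its tetraploid libraries were also above all others (log2 difference 0.45 from diploids and 0.43 from haploids), also in FPKM as deposited, and it did not pass. Unlike npm2a, neither gene had haploid libraries below all diploid libraries. npm1a, the broadly used nucleophosmin relative, had log2 differences of 0.08, 0.05 and 0.03 in tetraploids against diploids, haploids against diploids and tetraploids against haploids.

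Genes for H2A.Z exchange, which insert or remove the products of h2afva and h2afvb, were tested for 13 of 22 loci in the files. By limma 0 passed in each comparison, and median log2 differences were 0.09, 0.03 and 0.07 in the same order of comparisons. There were 0, 1 and 0 of 13 at an unadjusted p under 0.05. These are 0%, 7.69% and 0%, against 4.9%, 1.42% and 7.75% of all tested loci. ruvbl2, an ATPase shared by the SRCAP and TIP60 complexes, had 69.5 ± 2.44 scaled FPKM in tetraploids, 51.9 ± 19.8 in haploids and 75.8 ± 3.72 in diploids. Every tetraploid and every haploid library was below every diploid library, also in FPKM as deposited, with log2 differences of -0.12 and -0.61 (limma adjusted p = 0.917 and 0.9999). epc1b, of the TIP60 complex, had 8.99 ± 0.191 in tetraploids, 6.07 ± 1.44 in haploids and 8.42 ± 2.76 in diploids. Its tetraploid libraries were above the haploid ones in scaled FPKM (limma adjusted p = 0.653), but overlapped them in FPKM as deposited. morf4l1, of the same complex, had 203.7 ± 21.3 in tetraploids, 176 ± 9.23 in haploids and 173 ± 11.7 in diploids. Its tetraploid libraries were above the diploid ones in scaled FPKM (limma adjusted p = 0.828), but overlapped them in FPKM as deposited. anp32e, which removes H2A.Z in mammals, differed by 0.09, 0.12 and -0.02.

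Genes for processing of core histone mRNA, the class to which hist2h3c belongs, were tested for 7 of 16 loci. By limma 0 passed in each comparison, with 1, 0 and 1 of 7 at an unadjusted p under 0.05. In the same order of comparisons these are 14.3%, 0% and 14.3%, against 4.9%, 1.42% and 7.75% of all tested loci. In tetraploids 6 of 7 differences were positive against diploids (median 0.16) and 6 of 7 against haploids (median 0.12). These counts share the tetraploid libraries. In haploids against diploids 5 of 7 were positive (median 0.003). Of all tested loci, 50.61% were positive in tetraploids against diploids, 49.66% in tetraploids against haploids and 49.74% in haploids against diploids. slbp, which binds the stem-loop of core histone mRNA, had 167.1, 169.8 and 275 scaled FPKM in tetraploids, 150.8, 114.2 and 128.7 in haploids and 147.8, 142.1 and 149.3 in diploids. The tetraploid libraries were above all others, with the highest value in tetraploid replicate 3, also in FPKM as deposited. npat, an activator of core histone transcription, had 44.9 ± 4.30 in tetraploids, 38.1 ± 0.676 in haploids and 36.4 ± 1.58 in diploids. Its tetraploid libraries were above all others in scaled FPKM. Its haploid libraries were just above the diploid ones (lowest haploid 37.48, highest diploid 37.43). The groups overlapped in FPKM as deposited. casp8ap2, also of this pathway, had 14.8, 10.9 and 17.6 in tetraploids, 13.1, 13.7 and 12.0 in haploids and 12.9, 8.87 and 10.8 in diploids, with overlap between all groups. None of these passed.

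The authors' deposited tables give pooled values, 1 for each ploidy, made by Cuffdiff. In the first of the authors' deposited tables npm2a had 122.7 FPKM in tetraploids (interval 60.6 to 184.8), 86.2 in haploids (interval 47.5 to 124.9) and 109.3 in diploids (interval 69.4 to 149.2). In the second of the authors' deposited tables it had 124.9, 89.5 and 101.5. The order of the 3 ploidies was the same as in the libraries, and the intervals overlapped. As pools of the libraries these values are no separate support for that order. They are also on a higher scale, since single tetraploid libraries had 39.3 to 56.1 FPKM as deposited, so levels were not compared. For hist2h3c the authors' deposited tables gave 7.10, 4.51 and 7.37 FPKM, and 7.06, 4.67 and 6.86, again lowest in haploids. For h2afva the ratio of haploids to diploids was 0.922 in the first of the authors' deposited tables and 1.04 in the second, so its direction depended on the table. The direction also changed for tetraploids to diploids at h2afva (0.964 and 1.07) and hist2h3c (0.963 and 1.03). For haploids to diploids it changed at h2afvb too (0.984 and 1.11). For h3f3d the ratio of tetraploids to diploids was 0.906 and 0.980 in the authors' deposited tables, and for h2afvb 1.15 and 1.30.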

How the data were processed

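RNA of embryos was sequenced in 9 libraries, 3 per ploidy, grouped by the ploidy label. Whether poly(A) RNA was selected is not given in the sources used here. The authors deposited FPKM values per locus and library, with interval bounds; the submitters' processing notes name FastQC, Trim Galore, HISAT2, Cufflinks, Cuffdiff and GRCz10. Their versions, the annotation, the strand setting and the read depth were not given in the sources used here, so antisense and overlapping genes cannot be told apart. FPKM are not counts, so no count test was run. Implied fragments are (FPKM over its standard deviation) squared, with the half-width of the interval read as 2 standard deviations. They read the whole interval as counting error and hold no spread between libraries. That reading is doubtful at h2afva. Of those under 20, 54.2% to 55.8% lay within 0.02 of a whole number, so reads were not recovered.

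FPKM were divided by median-of-ratios factors from the 7336 loci above 0 in every library. The 5 loci with a failed status were left out. Tests used the moderated test of limma (version 3.58.1, R version 4.3.3), letting the variance follow the mean, on log2(scaled FPKM + 1), all 9 libraries in 1 fit with 6 residual degrees of freedom, and a threshold of 0.05. The code was tested on simulated data. No pair of libraries was identical. Replicate numbers follow accession order. Same-numbered libraries of the 3 ploidies carry consecutive library numbers in their labels (1 to 3, 4 to 6 and 19 to 21), which do not say what a set shares, and the tests had no block. The 5 genes and the 4 gene lists were chosen with earlier results of these data known, and the symbol list of 57 histone loci after the symbols were seen. Genes named from a list are the 3 with the smallest p over the 3 comparisons, and anp32e, npm1a, npm2b and the 2 chaf1 genes were named for their roles. Alternatives covered scaling, pseudocount, filter, trend, weights, libraries in the fit, a block and each library left out. The 3 loci most correlated with each of the 5 genes were also named, except 1 that is not reported here.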

Additional observations from a re-analysis of the deposited data

How the results depend on the processing

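Over 19 alternative settings, 282 values were obtained for the 15 log2 differences of the 5 genes, and 0 of them passed by limma (lowest adjusted p 0.271). The count of the 5 genes called was 0 in every setting and comparison. hist2h3c could not be tested with a mean of at least 5.

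A total of 8 of the 15 differences kept their sign in every setting, among them all 3 of npm2a: 0.39 to 0.57 for tetraploids over haploids, -0.41 to -0.23 for haploids over diploids and 0.03 to 0.23 for tetraploids over diploids. Sign changes were seen for 7. With library weights h3f3d was 0.10 in tetraploids against diploids and 0.059 against haploids, hist2h3c was 0.19 in tetraploids against diploids, and h2afvb was 0.012 in haploids against diploids. With FPKM as deposited h3f3d was -0.018 in haploids against diploids and h2afva -0.043 in tetraploids against haploids, and -0.011 when scaled to FPKM off the mitochondrial genome. Over single libraries left out, tetraploids against diploids ranged from -0.10 to 0.012 for h2afva, -0.56 to 0.14 for h3f3d and -0.34 to 0.24 for hist2h3c. Haploids against diploids ranged from -0.10 to 0.016 for h2afvb and -0.027 to 0.071 for h3f3d, and tetraploids against haploids from -0.58 to 0.13 for h3f3d. The cause was not tested.

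Of all loci, 1 was called in tetraploids against diploids, 0 in haploids against diploids and 1 in tetraploids against haploids. Both calls of 1 became 0 with no filter, with only the 6 libraries compared and with the replicate block. The first also became 0 with FPKM as deposited and with a pseudocount of 5. With 1 library left out the counts ranged from 0 to 1 in each comparison. With no filter most variances were zero by limma's own warning. Same-numbered libraries had correlations of deviations of -0.11 to 0.234, against -0.133 to 0.228 for different numbers. The labels number same-numbered libraries consecutively without stating what joins them, so pairing was not established. The block changed no call among the 5 genes.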
